A study of Ovis aries with 16 samples.

Results

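The genes *PLD1* (ENSOARG00020001072), *PLA2G12B* (ENSOARG00020020260) and *SGPL1* (ENSOARG00020014065) were described in RNA sequencing data from fetal sheep liver. They are 3 of the 26478 genes counted, and all 3 were among the 8580 genes that had at least 250 reads in at least 8 livers. The genes were picked by name as genes of phospholipid and sphingosine phosphate turnover that differed between the groups in these same livers. The difference between hypoxic and normoxic livers therefore chose them, and it is given below as a description without a test.

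*PLD1* encodes phospholipase D1, which splits phosphatidylcholine into phosphatidic acid, a lipid second messenger, and choline. *PLA2G12B* belongs to the secreted phospholipase A2 family but lacks the usual catalytic activity, and it is known in liver for the loading of lipid onto very low density lipoprotein. *SGPL1* encodes sphingosine 1-phosphate lyase of the endoplasmic reticulum, which irreversibly cleaves sphingosine 1-phosphate into ethanolamine phosphate and a fatty aldehyde and so forms the exit from sphingolipid breakdown.

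Livers came from singleton fetuses of Welsh Mountain ewes. In the control group (CON, n = 9, 5 male and 4 female) the ewes were kept in normoxia, and in the hypoxic group (HOX, n = 7, 3 male and 4 female) they breathed air low in oxygen for 30 days. The labels place collection at about day 130 of gestation, whereas the study's methods give a later day. The hypoxia was applied to the ewe, so that it acted on mother, placenta and fetus together. The study also measured lipid metabolites, among them sphingosine and its phosphate, in livers of these groups, and those measurements were not analysed here.

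Each library was 1 liver, with 24065959 to 29353692 counted reads in CON and 23955166 to 33952503 in HOX. HOX animal 1, a female, had the most reads and stood apart on the first principal component (25.6% of the variance), where it scored 64.4 against -15.6 to 6.23 in the other 15 livers. Results are therefore given with and without it. Hepatocyte markers were abundant in every liver, and no marker of the cell types described below was at 0 in any liver. The summed level of 11 hepatocyte markers was 21782 to 32335 normalised counts (CPM, counts scaled to library size after TMM normalization) in CON, 15940 to 24527 CPM in the other 6 HOX livers and 15707 CPM in HOX animal 1, and 10 of the 11 were lower in HOX by fold change. All markers in this report had symbols only through the study's table of genes selected on these same livers. Of 22 listed hepatocyte markers, 11 could be used, so their direction is not independent evidence. In bulk liver, fewer cells of a type and less RNA per cell cannot be told apart.

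*PLD1*, the phospholipase D gene, was lower in HOX. It measured 14.7 CPM in the lowest CON liver, 20.7 in the median and 26.2 in the highest, against 9.43, 15.4 and 16.8 CPM in HOX. The CON mean exceeded all 7 HOX livers, which was true of 6.07% of all tested genes, but the groups overlapped: 3 of the 7 HOX livers lay below the lowest CON liver. The means were 21.0 ± 4.00 CPM (SD, n = 9) in CON and 14.2 ± 2.80 CPM (SD, n = 7) in HOX, or 32.2% lower. On the log2 scale the edgeR estimate was -0.56 (SE 0.145). HOX animal 1 had the lowest value of all 16 livers, and without it the HOX mean was 15.0 ± 2.00 CPM (SD, n = 6), 28.4% below CON, with an estimate of -0.48 (SE 0.132).

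The *PLD1* values rested on 277 to 745 reads per liver, the fewest of the 3 genes. Its spread among CON livers was also the widest, with a coefficient of variation of 19.1% against 9.58% for *PLA2G12B* and 6.42% for *SGPL1*. In CON, 61.7% of all tested genes varied less than *PLD1*, whereas 1.75% varied less than *SGPL1*. *SGPL1* was thus among the steadier transcripts of the control liver.

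*PLA2G12B*, the lipoprotein-related member of the phospholipase A2 family, was lower in HOX by a smaller margin. CON livers ran from 40.2 CPM through a median of 51.0 to 56.2 CPM, and HOX livers from 37.1 through 45.1 to 45.9 CPM. Again the CON mean exceeded every one of the 7 HOX livers, 7 of the 9 CON livers lay above the highest HOX liver, and the lowest CON animals, 2 and 7, fell within the HOX range. Means were 49.9 ± 4.78 CPM (SD, n = 9) and 42.9 ± 3.58 CPM (SD, n = 7), 14.0% lower, and the log2 estimate was -0.22 (SE 0.0803). HOX animal 1, at 45.4 CPM, was like the other HOX livers for this gene, and leaving it out gave 42.4 ± 3.72 CPM (SD, n = 6) and a log2 estimate of -0.23 (SE 0.0811).

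*SGPL1*, the sphingosine 1-phosphate lyase gene, had no single direction across the HOX livers. In CON it ran from 67.5 CPM through a median of 76.9 to 81.4 CPM. In HOX animals 1 to 7 it measured 188.9, 63.6, 58.7, 65.6, 53.8, 63.0 and 69.3 CPM. HOX animal 1 was thus above every other liver, while the other 6 HOX livers were under the CON mean, as for 10.8% of all tested genes, and 5 were under the lowest CON liver. With all livers, the HOX mean of 80.4 ± 48.1 CPM (SD, n = 7) exceeded the CON mean of 75.1 ± 4.82 CPM (SD, n = 9), and the log2 estimate was 0.10 (SE 0.213). Without HOX animal 1 the HOX mean was 62.3 ± 5.43 CPM (SD, n = 6), 16.9% below CON, and the log2 estimate turned to -0.27 (SE 0.0681). No other single liver, left out in turn, turned the sign of this gene.

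**Figure D1:**
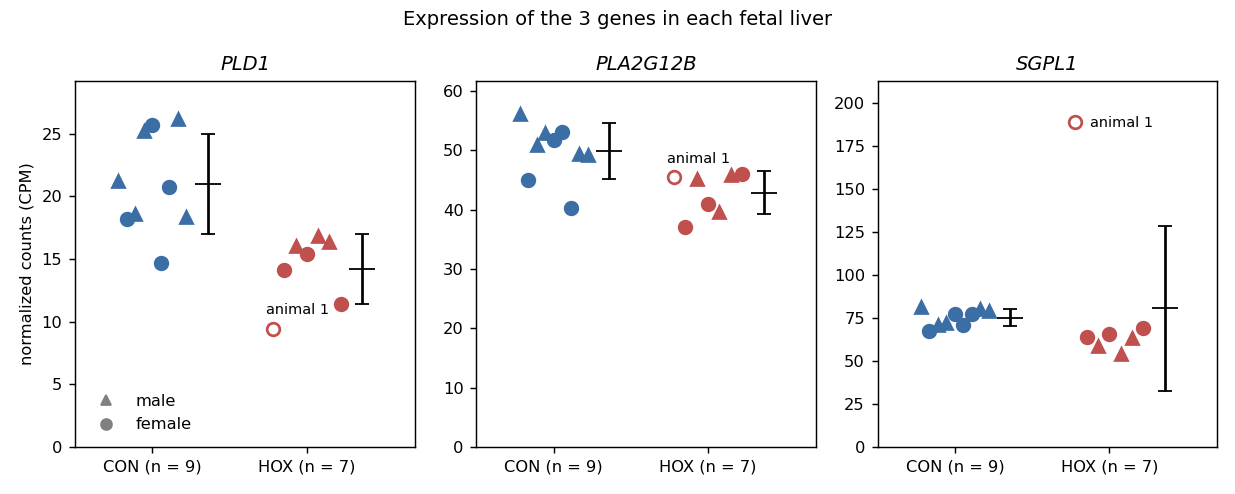
Normalized counts (CPM, vertical axes from 0) of *PLD1*, *PLA2G12B* and *SGPL1* in each liver, with CON in blue, HOX in red, triangles for males, circles for females and HOX animal 1 as an open circle. Black bars give the mean ± SD. HOX animal 1 is the lowest liver for *PLD1* at 9.43 CPM, sits among the other HOX livers for *PLA2G12B* and is the highest for *SGPL1* at 188.9 CPM.

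At an adjusted *P* under 0.15 in edgeR, 0 of the 3 genes were called in HOX against CON, beside 0.0583% of all tested genes called lower and 0% called higher. Without HOX animal 1 edgeR called 0 of the 3, beside 0.106% of genes called lower. DESeq2, which the study used, called *PLD1* lower with all livers, beside 1.61% of genes, and all 3 lower without HOX animal 1, beside 3.56% of genes. limma-voom, run with a quality weight for each liver, called *PLD1* lower, beside 1.11% of genes. These calls come from the contrast that chose the genes, and nothing is read from them.

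Leaving out each liver in turn gave log2 estimates of -0.60 to -0.48 for *PLD1* and -0.25 to -0.18 for *PLA2G12B*. For *SGPL1* the range was -0.27 to 0.20. The lower end is the fit without HOX animal 1 and the upper end the fit without HOX animal 5, which had the lowest *SGPL1* value. The phospholipase genes thus kept their direction in each of these fits, and *SGPL1* did not. These fits share most livers and reuse the contrast that chose the genes, so a kept direction is a description. The share of all tested genes that kept theirs was not counted.

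**Figure D2:**
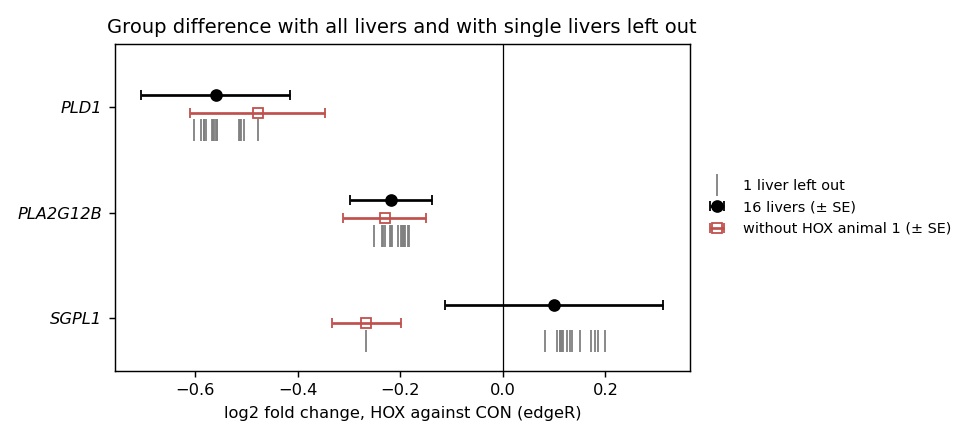
Log2 fold change of HOX against CON (horizontal axis, edgeR) for each gene with all 16 livers (black, ± SE), without HOX animal 1 (red, ± SE) and with each liver left out in turn (grey ticks). For *SGPL1* 1 tick, at -0.27, lies left of 0, and the other ticks lie to its right.

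HOX animal 1 was set against the other 6 HOX livers across all tested genes. Its difference from their mean log2 CPM was 1.60 for *SGPL1*, and 154 of the 8580 genes had a higher value. A rise of over 1 on the log2 scale in this liver was seen for 6.36% of genes, and 4.38% deviated more than *SGPL1* in either direction. For *PLD1* the difference was -0.66, and 24.4% of genes lay more than 0.5 below the other HOX livers. *PLA2G12B* differed by 0.10. In this liver 15.0% of genes deviated from the other HOX livers by more than 1 on the log2 scale, in either direction. The same shares were not counted for any other liver, so they have no baseline here. Whether the high *SGPL1* value belongs with the deviations of the other genes was not tested.

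**Figure D3:**
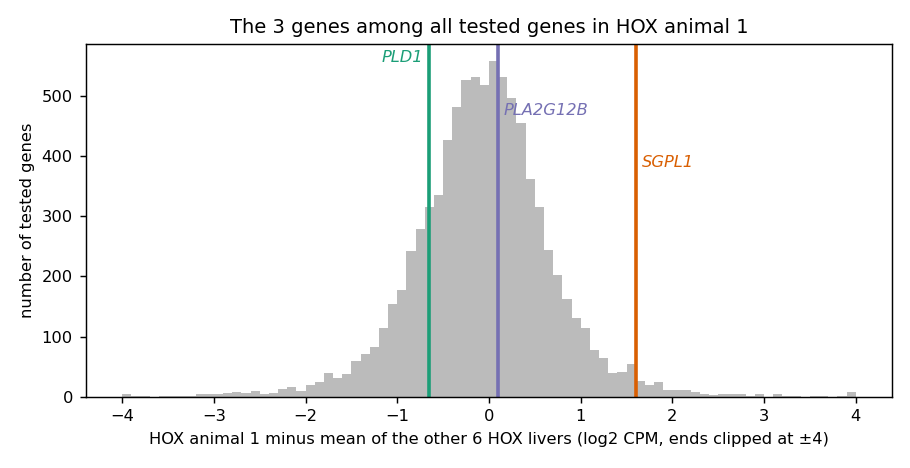
Distribution over the 8580 tested genes of HOX animal 1 minus the mean of the other 6 HOX livers (log2 CPM, horizontal axis, ends clipped) against the number of genes (vertical axis). Lines mark *PLD1* at -0.66, *PLA2G12B* at 0.10 and *SGPL1* at 1.60, the last in the upper tail.

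Ratios of reads between the genes within a liver do not depend on how libraries are scaled. *SGPL1* gave 1.52 ± 0.178 reads per *PLA2G12B* read in CON (SD, n = 9, range 1.34 to 1.91) and 1.48 ± 0.159 in HOX without animal 1 (SD, n = 6, range 1.30 to 1.71). HOX animal 1 gave 4.16. Apart from that liver, the ratio of the lyase gene to *PLA2G12B* thus overlapped widely between the groups. *SGPL1* reads per *PLD1* read were 3.68 ± 0.643 (SD, n = 9) in CON and 4.26 ± 1.00 (SD, n = 6) in HOX without animal 1, and the value in animal 1 was 20.0. *PLA2G12B* reads per *PLD1* read were 2.46 ± 0.554 (SD, n = 9), 2.88 ± 0.584 (SD, n = 6) and 4.81 in the same order.

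Levels of other cell type markers are given beside these values. None of the markers named in this paragraph passed the threshold for HOX against CON in edgeR, whereas DESeq2 called CD34 and ASPN higher. Of the hepatocyte markers, DESeq2 called AFP, ASGR2, F7, VTN, CPN2 and AGXT2 lower and HGFAC higher, beside 1.61% and 1.15% of all genes. These markers too come from the study's selected genes, so nothing is read from the calls. Of the listed markers, 1 of 9 could be used for macrophages and 1 of 7 for endothelial and progenitor cells. For stellate cells and fibroblasts it was 2 of 10, and for erythroid cells 4 of 12. The values below therefore describe these genes and do not stand for whole cell types. CD163, a macrophage marker, was 254 to 419 CPM in CON, 172 to 326 CPM in the other HOX livers and 61.9 CPM in HOX animal 1. The sum of 4 erythroid markers was 170 to 533 CPM in CON, 296 to 772 CPM in the other HOX livers and 259 CPM in HOX animal 1. The stellate and fibroblast markers TGFBI and ASPN summed to 130 to 204 CPM, 146 to 194 CPM and 91.3 CPM in that order, with log2 estimates of opposite sign, -0.50 and 0.38. CD34, an endothelial and progenitor marker, was 6.35 to 29.7, 15.6 to 54.0 and 21.3 CPM, so that HOX animal 1 lay within the range of its group. The part of these differences in the values of *PLD1*, *PLA2G12B* and *SGPL1* was not tested.

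Sex was not used to choose the genes and could be tested. With treatment group in the edgeR model, males minus females was 0.25 (SE 0.134) for *PLD1*, 0.09 (SE 0.0801) for *PLA2G12B* and -0.28 (SE 0.215) for *SGPL1* on the log2 scale. The adjusted *P* was 0.974 for each in edgeR, so that no sex difference passed the threshold, which 0.0233% of genes did. The *SGPL1* estimate was -0.026 without HOX animal 1.

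Within males the groups separated for all 3 genes. The highest HOX male had 16.8 CPM of *PLD1* against 18.4 CPM in the lowest CON male, 45.8 against 49.2 CPM of *PLA2G12B*, and 63.0 against 70.8 CPM of *SGPL1*. All 3 male HOX livers lay below all male CON livers for 3.32% of tested genes. This uses the contrast that chose the genes and is a description. Among females the groups overlapped for each gene.

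Log2 estimates in females alone and males alone were -0.64 (SE 0.222) and -0.41 (SE 0.156) for *PLD1*, and -0.15 (SE 0.147) and -0.24 (SE 0.104) for *PLA2G12B*. For *SGPL1* they were 0.43 (SE 0.354) in females, which include HOX animal 1, and -0.38 (SE 0.105) in males. The difference between the sexes was tested by a sex by treatment term, male minus female. It was 0.24 (SE 0.274) for *PLD1*, -0.09 (SE 0.166) for *PLA2G12B* and -0.80 (SE 0.391) for *SGPL1*, with an adjusted *P* of 0.999 for each in edgeR. Without HOX animal 1 the *SGPL1* interaction was -0.24 (SE 0.132). For this term edgeR called 0 of 8580 genes (0%), with 281 at an unadjusted *P* under 0.05, and DESeq2 called 6 (0.07%).

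Within the HOX group *PLD1* and *SGPL1* ran in opposite directions, and the sexes did not overlap on either gene. The share of all tested genes that separate by sex in this way was not counted, so nothing is read from that separation. HOX females had 9.43 to 15.4 CPM of *PLD1* and HOX males 16.1 to 16.8 CPM, and *SGPL1* was 63.6 to 188.9 CPM in females and 53.8 to 63.0 CPM in males. Over the 7 HOX livers Pearson's r of log2 CPM was -0.87 (two-sided exact permutation *P* = 0.00179, adjusted 0.0107 over the 6 relations tested) and Spearman's rho was -0.93 (exact permutation *P* = 0.00675, adjusted 0.0405). Without HOX animal 1, r was -0.77 (n = 6, exact permutation *P* = 0.075) and rho -0.89 (exact permutation *P* = 0.0333). Leaving out the 2 livers farthest from the *PLD1* median gave an r of -0.65. The Pearson relation thus passed 0.05 with HOX animal 1 and not without it. These values ignore sex. Relative to the mean of each sex, an alternative chosen after seeing the data, r was -0.85 (n = 7, exact permutation within sex *P* = 0.0347, adjusted 0.208 over the 6 relations) and, without HOX animal 1, -0.47 (n = 6, exact permutation *P* = 0.222). With sex taken into account the relation therefore did not pass after adjustment. Such correlations were not rare in this group: 8.86% of the other 8579 tested genes had an r with *SGPL1* at or below that of *PLD1* over the 7 livers, and 4.70% over the 6.

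In CON the same pair had an r of 0.48 (n = 9, exact permutation *P* = 0.193, adjusted 0.579) and a rho of 0.60 (exact permutation *P* = 0.0968, adjusted 0.290), and r was 0.25 without the 2 farthest livers. The difference between the groups in this correlation was not tested. *PLD1* and *PLA2G12B* had an r of 0.07 in CON (n = 9, exact permutation *P* = 0.864) and -0.36 in HOX (n = 7, exact permutation *P* = 0.459). *PLA2G12B* and *SGPL1* had an r of 0.15 in CON (n = 9, exact permutation *P* = 0.701) and 0.36 in HOX (n = 7, exact permutation *P* = 0.440). Both phospholipase family genes were lower in HOX, yet within a group their levels did not track each other beyond the test's threshold.

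**Figure D4:**
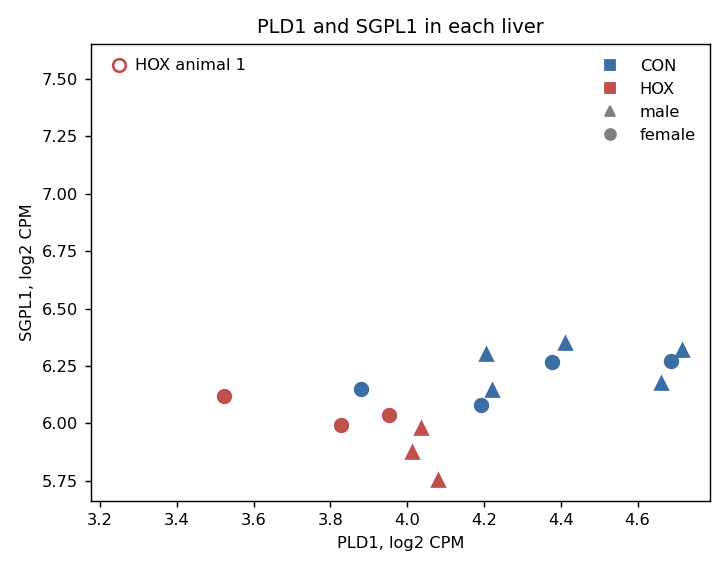
*SGPL1* (vertical axis) against *PLD1* (horizontal axis), both in log2 CPM, in each liver, with CON in blue, HOX in red, triangles for males and circles for females. The HOX livers fall from HOX animal 1 (open circle, upper left) to the HOX males at lower right, with an r of -0.87 over 7 livers and -0.77 over 6.

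Beside each gene, 428 others had a symbol, all through the study's table of genes selected on these same livers. For each gene, the 3 of these whose log2 CPM ran most like it over the 9 CON livers were found, as a description. They were *SLC38A2*, an amino acid transporter (r = 0.87), *CARMIL1* (0.83) and *ZNF395* (0.83) for *PLD1*. For *PLA2G12B* they were *BZW2* (0.84), *MRPL13*, a mitochondrial ribosomal protein (0.76), and *URB2* (0.73). For *SGPL1* they were *MRPL16*, another mitochondrial ribosomal protein (0.89), the desaturase *FADS3* (0.71) and *SUN2* of the nuclear envelope (0.71). Over the 7 HOX livers *SLC38A2* had an r of -0.90 with *PLD1*, and over the 6 without HOX animal 1 it had -0.68. *MRPL16* had -0.68 with *SGPL1* over 7 and -0.24 over 6. Other genes stayed positive in HOX: *ZNF395* had 0.76 with *PLD1* over 7 and 0.13 over 6, and *BZW2* and *URB2* had 0.34 and 0.49 with *PLA2G12B* over 7. *SUN2* and *FADS3* had -0.53 and -0.47 with *SGPL1* over 7 and 0.90 and 0.76 over 6. *CARMIL1* had 0.06 with *PLD1* over 7 and -0.54 over 6, and *MRPL13* had 0.11 and -0.78 with *PLA2G12B*. These genes had the highest of 428 r values over 9 livers, so a high r in CON comes in part from the choice. Among all tested genes, their ranks by r in CON ran from 3 (*MRPL16*) to 127 (*URB2*). The positive r of CON was met in HOX for some of these genes and not for others. For *SUN2*, *FADS3*, *CARMIL1* and *MRPL13* the sign in HOX depended on HOX animal 1.

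Other lipid genes were taken from 7 lists holding 262 symbols. Of these, 18 could be matched to an identifier, and 17 passed the read filter, the exception being *PITPNC1*. The symbols came from the study's table of genes selected on these same livers. The direction of the 14 genes beside *PLD1*, *PLA2G12B* and *SGPL1*, and the number of them called, are therefore not independent evidence. Of the 14, 11 were lower in HOX and 3 higher, with a median log2 estimate of -0.23 (-0.36 without HOX animal 1), beside a median of 0.0054 (-0.0085) over all genes tested. edgeR called 1 of the 14 lower and 0 higher, and DESeq2 called 4 lower and 1 higher, beside 1.61% and 1.15% of all genes. Without HOX animal 1 DESeq2 called 11 lower and 3 higher, beside 3.56% and 2.6% of all genes.

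Among enzymes of glycerophospholipid synthesis, *GPD1*, which makes glycerol 3-phosphate, fell furthest. It measured 66.6 to 154 CPM in CON and 34.3 to 59.6 CPM in HOX, so that the groups did not overlap, as for 0.0699% of all tested genes. Its log2 estimate was -1.27 (SE 0.174, adjusted *P* = 0.00847 in edgeR). *PEMT*, which methylates phosphatidylethanolamine to phosphatidylcholine, the substrate of phospholipase D, was 108 ± 16.9 CPM (SD, n = 9) in CON and 76.0 ± 24.4 CPM (SD, n = 7) in HOX, with an estimate of -0.51. The acyltransferase *AGPAT1*, which makes phosphatidic acid, had an estimate of -0.25. *DGKQ*, a diacylglycerol kinase that makes the same lipid, and *CDIPT*, phosphatidylinositol synthase, each had -0.18. None of these 4 passed the threshold in edgeR or, with all livers, in DESeq2.

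Genes of lipoprotein assembly and fatty acid handling showed the same sign as the phospholipase genes, except *FADS3*. *TM6SF2*, which like *PLA2G12B* is known for the lipid loading of very low density lipoprotein, was 21.7 ± 5.46 CPM (SD, n = 9) in CON and 15.5 ± 3.31 CPM (SD, n = 7) in HOX, an estimate of -0.49. *ACSL5*, an acyl-CoA synthetase, had -0.51 and *ACOX3*, a peroxisomal oxidase, -0.16. *FADS3*, which desaturates sphingoid bases, had 0.89, but it reached 250 reads in only 3 CON and 5 HOX livers. In the arachidonate list *OXER1*, a receptor for an oxidised arachidonate product, had -0.78 and *PTGR1*, a prostaglandin reductase, -0.75. DESeq2 called *ACSL5*, *OXER1* and *PTGR1* lower, and edgeR called none of the 6.

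Of the phosphatidylinositol genes, *PIK3R5*, a regulatory subunit of phosphoinositide 3-kinase, had a log2 estimate of 0.81 and *PIGQ*, which acts at the start of glycosylphosphatidylinositol anchor synthesis, 0.65. *PIK3R5* reached 250 reads in 4 CON and 7 HOX livers, so it passed the read filter mainly through the group where it was higher. *PIGQ* alone of these was called by DESeq2, and neither by edgeR. *PIGK*, of the complex that attaches the anchor to proteins, had -0.21.

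*SGPL1* was the only one of the 17 tested lipid genes whose estimate changed sign without HOX animal 1. *DGKQ* and *PIGK* were also high in that liver, at 42.3 CPM against 18.7 to 26.5 and 47.9 CPM against 32.2 to 37.6 in the other HOX livers. *PEMT* and *PTGR1* were lower there than in any other HOX liver, at 34.4 and 30.1 CPM. The lipid genes thus departed in both directions in HOX animal 1.

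**Figure D5:**
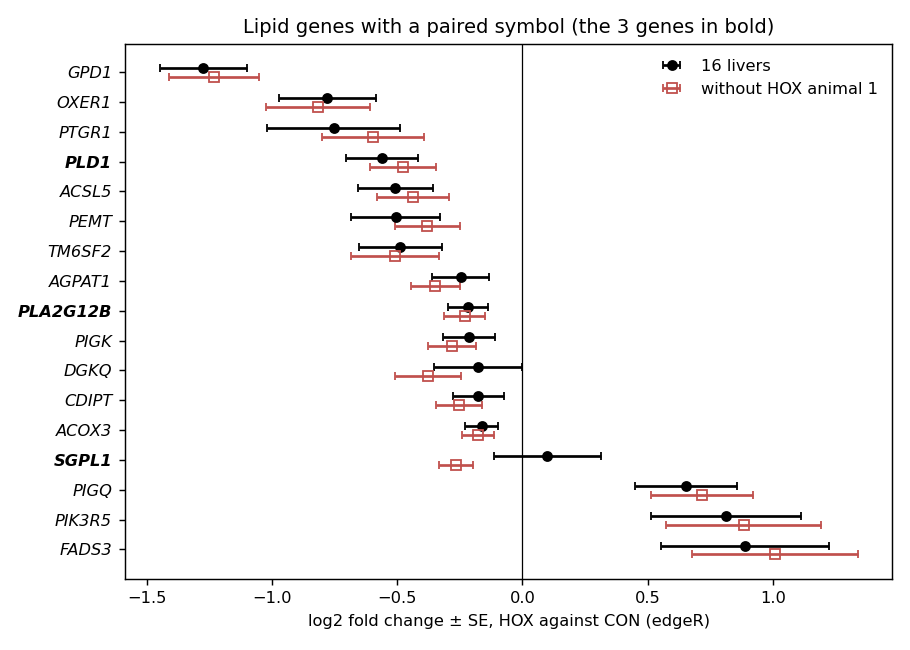
Log2 fold change ± SE of HOX against CON (horizontal axis, edgeR) for the 17 tested lipid genes, with all 16 livers in black and without HOX animal 1 in red, ordered by the former. *PLD1*, *PLA2G12B* and *SGPL1* are in bold, and *SGPL1* is the gene whose black and red points, 0.10 and -0.27, lie on opposite sides of 0.

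In the RefSeq annotation of the newer sheep assembly ARS-UI_Ramb_v3.0, *SGPL1* and *PLA2G12B* lie on the same chromosome with 28 annotated genes between them, 16 of them protein coding. The span of *PLD1* overlaps 2 other annotated genes there and that of *SGPL1* overlaps 1, whereas that of *PLA2G12B* overlaps 0. The counts were made on ARS-UI_Ramb_v1.0 with the Ensembl annotation, in which overlaps were not examined. Whether reads were assigned by strand is not given in the sources used here. Whether reads of overlapping genes entered the counts of *PLD1* and *SGPL1* was not tested.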

How the data were processed

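PolyA-enriched RNA from 16 fetal livers was sequenced as paired reads. The authors mapped the reads with STAR 2.7.10b (per the submitters' processing notes) to ARS-UI_Ramb_v1.0 using the Ensembl annotation. The deposited values are raw counts for 26478 genes, with no normalization or filter. The counting rule and use of strand are not given in the sources used here. All columns of the table were used. Groups, animal numbers and sex came from the labels. The counts carry identifiers only. Symbols came from the study's gene table (487 identifiers, 438 symbols), whose genes were selected on these livers, and the RefSeq table of ARS-UI_Ramb_v3.0 held 0 of the identifiers.

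Genes reaching 250 reads in 8 or more livers (8580 genes, 97.7% of reads) were fitted with edgeR's quasi-likelihood test (TMM, edgeR 4.0.16, limma 3.58.1, R 4.3.3), and *P* values were adjusted over all genes tested by the Benjamini-Hochberg procedure, with calls at an adjusted *P* under 0.15, the study's threshold. The study used DESeq2 (1.42.0 here), which was run as an alternative. limma-voom was run with sample quality weights, so that the livers did not count equally in it. CPM values were scaled by TMM, and log2 CPM used a prior count of 2. Standard errors came from the coefficient and its F statistic. Correlations and plots used Python 3.11.15 with numpy 2.4.6, pandas 2.3.3, scipy 1.17.1 and matplotlib 3.10.9. Fits were tested on simulated data. Alternatives changed the tool, the scaling, the read filter, a sex term, the replicate block, the sex analysed and single livers.

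The genes and lists were chosen with earlier results of these data known. The genes named are *PLD1*, *PLA2G12B* and *SGPL1*, every tested lipid list gene with an identifier, and the 3 named genes most like each of the 3 over CON livers. Animal numbers 1 to 7 occur in both groups but name separate fetuses, and same-numbered livers did not deviate together (correlations -0.31 to 0.15). The smallest chi-square per degree of freedom between livers was 63.2, so no library was a duplicate. Metabolite data were not analysed here. A marker list of 1 gene is not reported here.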

Additional observations from a re-analysis of the deposited data

Results flagged for a closer look

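Each lipid gene was checked in each group for a liver far from the others by Dixon's ratio, the gap to the nearest liver over the group's range (critical value 0.568 for 7 livers). Of 34 groups checked, 4 passed, and chance flags about 1 in 20. HOX animal 1 and its *SGPL1* value had been singled out before this check, and flags within 1 liver are not independent. The count can therefore not be weighed against that rate, and the flags are a description. Of the 4, 3 were in HOX animal 1. *SGPL1* was 188.9 CPM there against 53.8 to 69.3 CPM in the other 6 HOX livers (ratio 0.885). *DGKQ* was 42.3 CPM in HOX animal 1 against 18.7 to 26.5 CPM (ratio 0.671), and *PIGK* was 47.9 CPM against 32.2 to 37.6 CPM (ratio 0.657). In HOX animal 4, *PIGQ* was 220.6 CPM against 77.1 to 121 CPM in the other HOX livers (ratio 0.694).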

How the results depend on the processing

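The HOX against CON log2 estimates of *PLD1* and *PLA2G12B* kept their sign in all 28 alternatives each. Those alternatives reuse the contrast that chose the genes, so this is a description. That of *SGPL1* (0.10) reversed in limma-voom with a quality weight for each liver (-0.25) and in males alone (-0.38). It was -0.0093 with the replicate block, which left out CON 8 and CON 9. It also reversed without HOX animal 1 in edgeR (-0.27) or DESeq2 (-0.26), and ran from -0.27 to 0.20 with single livers left out. The weights given to the livers were not examined. The number of genes called in HOX against CON was 5 in edgeR, 237 in DESeq2, 146 in limma-voom, 1 with library size alone, 1 with no read filter, 0 in females, 2 in males, 523 in DESeq2 without HOX animal 1, and 1 to 47 with single livers left out, the highest without HOX animal 5. For sex it was 2, against 7 in DESeq2 and 1 to 2 with single livers left out. For the interaction it was 0, against 6 in DESeq2 and 0 to 3 with single livers left out. The causes were not tested.

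The animal numbers did not pair the livers, and 1 of 7 pairs correlated best with its own number. The replicate block was fitted on animals 1 to 7 of each group, without CON 8 and CON 9, and tested 8404 genes. Its results therefore do not show the effect of blocking alone. With the replicate block 0 genes were called for HOX against CON and 0 for sex, and *PLD1* was -0.52 and *PLA2G12B* -0.20. No block was fitted for the interaction.

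Among the correlations, *PLD1* with *SGPL1* in HOX was weaker without HOX animal 1 (-0.77) and ran from -0.98 to -0.77 with single livers left out. *PLD1* with *PLA2G12B* in CON reversed with library size alone (-0.0053) and ran from -0.028 to 0.32, and *PLA2G12B* with *SGPL1* in CON ran from -0.10 to 0.45. Relative to the mean of each sex, an alternative added after seeing the data, these CON correlations reversed to -0.087 and -0.035. Without the 2 livers farthest from the median of the first gene, *PLD1* with *PLA2G12B* in HOX turned from -0.36 to 0.60. *PLA2G12B* with *SGPL1* in CON turned to -0.020 in the same way. Without HOX animal 1, *PLA2G12B* with *SGPL1* had an r of 0.29 (n = 6, exact permutation *P* = 0.568). Relative to the mean of each sex it was 0.88 (exact permutation within sex *P* = 0.0278, the smallest possible). With other scaling, another prior count or single livers left out, the other correlations kept their sign and side of the threshold. Read depth limits *PLD1* most, at 277 to 745 reads per liver.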
